A study of Mus musculus with 6 samples.

Results

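White fat adipokines are the proteins that white fat cells release into blood and tissue. The genes Adipoq, Lep, Retn, Cfd, Rbp4, Agt, Nampt, Apln and Rarres2 were taken by name, with every probe set annotated to them. Of these 9 genes, 8 had a probe set, each of them 1, among 19937 genes and 34760 probe sets in all. Cfd, the gene of adipsin, was not analysed here. RNA came from inguinal white adipose tissue, a subcutaneous depot, of male C57BL/6 mice aged 5 weeks, with 1 Affymetrix array per mouse. The 2 groups were 3 ATF7 KO mice, which lack the transcription factor Atf7, and 3 WT littermates, both bred from Atf7 heterozygotes, and no other allele or agent was given for either. Values are log2 expression values, so a difference of 1 is a doubling, and errors are SD over 3 mice unless named otherwise. The comparison asks if the secretory genes of the white adipocyte hold their level while thermogenic genes differ.

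A fat cell signals its energy store through secreted proteins. Adiponectin raises insulin sensitivity, leptin reports fat mass to the brain, and resistin opposes insulin action in mice. Other products are carriers or precursors made in fat as well as in liver, such as retinol-binding protein and angiotensinogen, or act locally on vessels and immune cells, such as apelin and chemerin. White and beige adipocytes both make many of these products, while heat production by uncoupling protein belongs to beige and brown cells.

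The labels were checked first on the targeted gene. Atf7 probe set 10433032 read 8.95, 9.20 and 9.07 in the WT arrays and 6.22, 6.53 and 6.49 in the KO arrays, with no overlap, while probe set 10433034 read 9.42 ± 0.09 in WT and 9.25 ± 0.16 in KO. The labels do not say which exons were deleted. Defining adipocyte markers were bright in all arrays, with Fabp4, the fatty acid carrier, at 12.56 to 12.78 and the droplet coat gene Plin1 at 11.67 to 12.12. A pair of arrays stood apart in markers of other cells. In KO replicate 3 all 16 B cell and all 18 T cell genes were at their lowest, and the mean of these 34 genes, each centred on its mean over 6 arrays, was -2.49 there, between -0.13 and 0.63 in the other KO arrays and between 0.53 and 0.78 in WT. In WT replicate 2, 13 of 16 genes of mammary duct and skin epithelium and 18 of 20 skeletal muscle genes were at their highest. The epithelial list was at 1.02 there and between -0.31 and -0.11 in the KO arrays. The muscle list was at 1.96 there, at -1.26 and 0.44 in the other WT arrays and between -1.19 and 1.23 in KO. In bulk tissue, fewer cells of a type and less RNA per cell cannot be told apart.

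None of the 8 adipokines differed between KO and WT past the threshold, an adjusted p under 0.05 over 19937 genes in limma, where 0% of all genes were called. Atf7 entered this fit by its brighter probe set, 10433034. Probe set 10433032 passed in the fit over all probe sets (log2 difference -2.66, adjusted p 0.00658 from limma). At an unadjusted p under 0.05 the count of adipokines was again 0 of 8, against 7.47% of all genes. In none of the 8 did the groups separate, against 13.9% of all genes. Their differences, KO minus WT, ran from -0.38 for Agt to 0.43 for Rarres2, with 4 of 8 above 0, against 53% of all genes. Their median was 0.02, and that of all genes was 0.01. The adipokine median was -0.10 without KO replicate 3, 0.13 without WT replicate 2 and -0.14 in the model with the lymphocyte score. The median size of the difference, sign aside, was 0.12 for the adipokines and 0.11 for all genes.

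**Figure D1:**
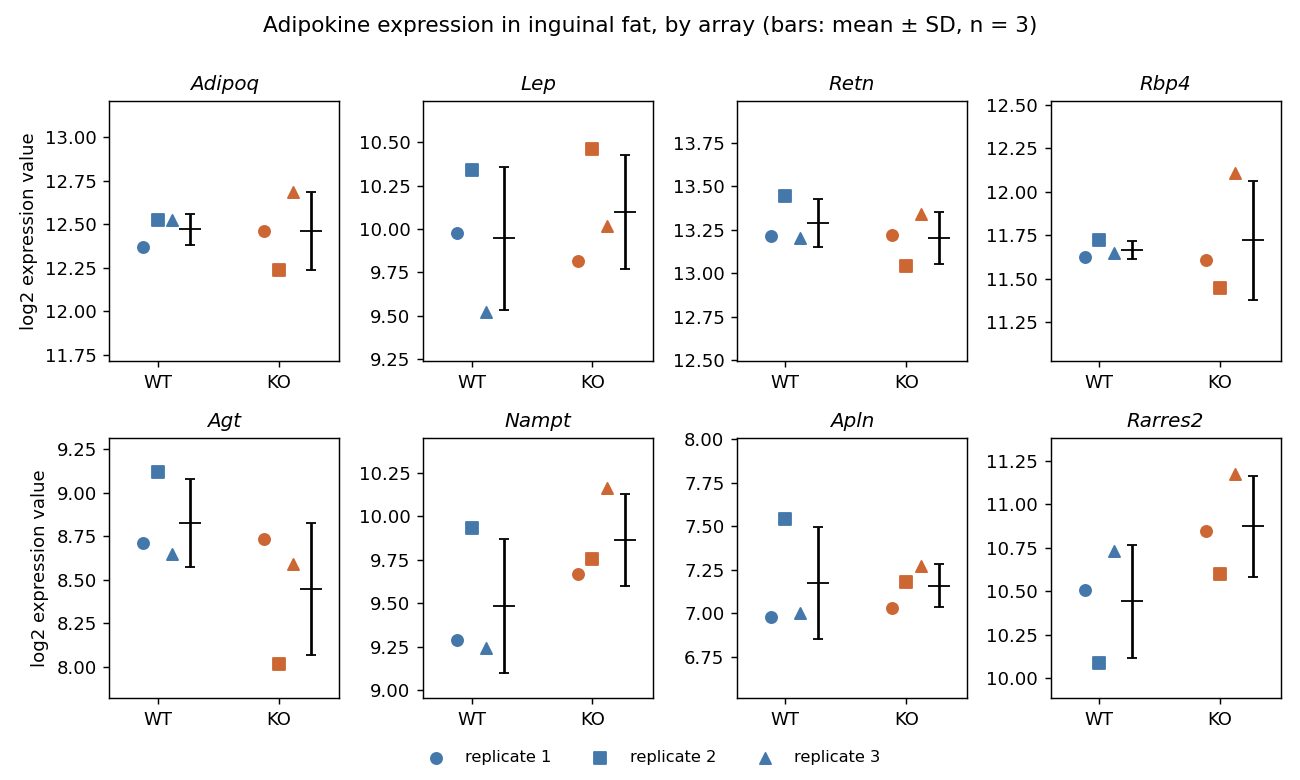
Log2 expression value of the 8 adipokines in each array, with WT in blue and KO in orange, a symbol for each replicate number and the mean ± SD (n = 3) in black; every panel spans the same range of 1.5. The WT and KO points overlap in all 8 panels.

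Adipoq encodes adiponectin, the most specific hormone of the fat cell. It read 12.37, 12.52 and 12.52 in WT and 12.46, 12.24 and 12.69 in KO. The highest and the lowest of the 6 arrays were both KO arrays, and the WT values lay between them. The means were 12.47 ± 0.09 and 12.46 ± 0.22, a log2 difference of -0.01 (SE 0.13) with a 95% interval of -0.31 to 0.30, and the adjusted p from limma was 0.987. On the linear scale the interval allows a KO level between 0.804 and 1.23 times that of WT. The sign of so small a difference was not settled, since shifting all arrays to 1 median made it 0.02. The largest move was to -0.18 (SE 0.11, unadjusted p 0.143) in the model with the lymphocyte score.

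Lep, the gene of leptin, varied most between mice of a group. It read 9.97, 10.34 and 9.52 in WT and 9.81, 10.46 and 10.02 in KO. Replicate 2 was the high array in both groups, and the groups overlapped between 9.81 and 10.34. The log2 difference was 0.15 (SE 0.24), with a 95% interval of -0.42 to 0.72 and an adjusted p of 0.857 from limma. Its interval is the widest of the 8, and reaches from 0.749 to 1.64 times WT. Without WT replicate 3 the difference was -0.06 and without WT replicate 2 it was 0.35.

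Retn encodes resistin, which is made by adipocytes in mice. The arrays read 13.21, 13.45 and 13.21 in WT and 13.22, 13.04 and 13.34 in KO. WT replicate 2 was the highest array and KO replicate 2 the lowest, with the other arrays of both groups between them. The difference was -0.09 on the log2 scale (SE 0.12, 95% interval -0.36 to 0.19), with an adjusted p of 0.830 from limma. This was the narrowest interval of the 8, between 0.777 and 1.14 times WT. The difference was -0.0062 without KO replicate 2, -0.0069 without WT replicate 2 and -0.21 (unadjusted p 0.130) in the model with the lymphocyte score.

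The next pair of genes encodes a carrier and a precursor. Rbp4, the retinol-binding protein of plasma, read 11.63, 11.72 and 11.65 in WT and 11.61, 11.44 and 12.11 in KO. The 3 WT arrays lay close together, with KO replicate 3 above them all and KO replicates 1 and 2 below them all, replicate 1 by little. The log2 difference was 0.06 (SE 0.17, 95% interval -0.34 to 0.45, adjusted p 0.933 from limma). It was -0.14 without KO replicate 3, the array with the low lymphocyte genes, and -0.23 once the lymphocyte score entered the model, at an unadjusted p of 0.0484 and an adjusted p of 1.0.

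Agt encodes angiotensinogen, from which renin and converting enzyme release angiotensin II. It was the adipokine with the largest difference toward lower levels in KO. The WT arrays read 8.71, 9.12 and 8.65 and the KO arrays 8.74, 8.02 and 8.59. KO replicate 2 was low and WT replicate 2 high, and the other 4 arrays lay between 8.59 and 8.74. The log2 difference was -0.38 (SE 0.21, 95% interval -0.88 to 0.12), with an adjusted p of 0.624 from limma. It was -0.16 without KO replicate 2 and -0.23 without WT replicate 2, and moved the other way, to -0.52, without KO replicate 1. In the model with the lymphocyte score it was -0.56 (unadjusted p 0.0507, adjusted p 1.0, limma), and in the model with the muscle score -0.27. WT replicate 2 also held the high epithelial genes, whose part in this value was not tested.

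Nampt makes nicotinamide mononucleotide, the precursor of NAD, inside cells and is also released by fat, where it was named visfatin. It read 9.29, 9.93 and 9.24 in WT and 9.67, 9.76 and 10.16 in KO. The 3 KO arrays lay above a pair of WT arrays, but WT replicate 2 lay above a pair of KO arrays. The difference was 0.38 (SE 0.22, 95% interval -0.14 to 0.89), or 1.30-fold, with an adjusted p of 0.629 from limma. Without WT replicate 2 it was 0.60, at an unadjusted p of 0.0118 and an adjusted p of 0.687. With the lymphocyte score as a covariate it was 0.16.

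Apln encodes apelin, a peptide of fat cells and of growing vessels. Its WT arrays read 6.98, 7.54 and 7.002 and its KO arrays 7.03, 7.18 and 7.27, not far above the array medians of 6.41 to 6.49. WT replicate 2 was again the highest array, and the other 5 lay within 0.30 of each other. The difference was -0.01 (SE 0.17, 95% interval -0.41 to 0.38, adjusted p 0.985 from limma). Leaving out WT replicate 2 made it 0.17, and shifting all arrays to 1 median made it 0.01, so no direction was settled.

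Rarres2 encodes chemerin, an adipokine that attracts immune cells and acts on adipocyte differentiation. Of the 8 genes it had the smallest p. It read 10.51, 10.09 and 10.73 in WT and 10.85, 10.60 and 11.18 in KO. KO replicates 1 and 3 lay above all WT arrays, while KO replicate 2 lay below WT replicate 3. The log2 difference was 0.43 (SE 0.20, 95% interval -0.05 to 0.91), or 1.35-fold, with an unadjusted p of 0.0711 and an adjusted p of 0.622 from limma. Leaving out WT replicate 3 made it 0.58. Leaving out KO replicate 3 made it 0.28, and leaving out its lowest array, WT replicate 2, made it 0.26. With the lymphocyte score as a covariate it was 0.22.

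Across arrays, the adipokines did not move as one group. KO replicate 3 was the highest of the 6 arrays for 4 of them (Adipoq, Rbp4, Nampt and Rarres2), and KO replicate 2 was the lowest for 4 (Adipoq, Retn, Rbp4 and Agt). In the same KO replicate 2, Lep was at its highest. WT replicate 2 was the highest WT array for 6 of the 8 genes and the highest of all 6 for Retn, Agt and Apln, while Rarres2 was at its lowest there. Over the 6 arrays and 28 pairs of adipokines, Pearson's r was highest between Adipoq and Rbp4 (0.90, and 0.90 without KO replicate 3), followed by Retn and Agt (0.87). It was lowest between Lep and Rarres2 (-0.45), and for Adipoq and Lep it was -0.40. This order rested on KO replicate 3. Over the other 5 arrays Rbp4 and Agt were highest (0.98, from 0.34), then Retn and Agt (0.95) and Retn and Rbp4 (0.92, from 0.67), and Apln and Rarres2 were lowest (-0.86, from -0.43). These correlations are descriptions, as 6 arrays of 2 groups share their arrays' normalization and their tissue makeup.

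**Figure D2:**
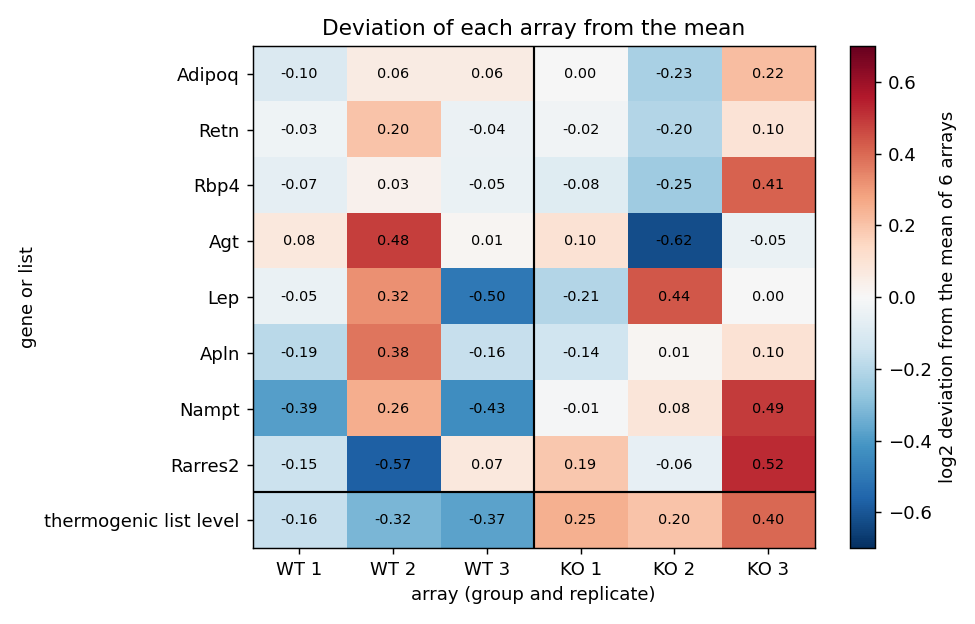
Deviation of each array (columns) from the mean of the 6 arrays on the log2 scale, for the 8 adipokines and for the mean of the 36 thermogenic genes (bottom line); red is above and blue below the mean. The thermogenic line is negative in the 3 WT arrays and positive in the 3 KO arrays, from 0.20 to 0.40, while no adipokine has one sign in WT and the other in KO.

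The genes nearest to Adipoq in pattern, by Pearson's r over the 6 arrays among 9968 genes brighter than the median gene, were Surf4 (0.99), Cda (0.99) and Chmp5 (0.99). They differed between KO and WT by 0.00, -0.04 and -0.03. For Lep they were Mirlet7e (0.99), Dhx30 (0.99) and Ccdc107 (0.98). With so few arrays an r above 0.9 was common, and 306 genes passed it for Adipoq and 57 for Lep.

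A set of 4 thermogenic genes on the same arrays, Ucp1, Cidea, Cox7a1 and Ppargc1a, gave another picture. All 4 differed by more than the median of the 36 thermogenic genes, 0.49. That median lies inside the intervals of Lep, Nampt and Rarres2. Ucp1, the uncoupling protein of brown and beige mitochondria, read 7.04, 5.97 and 6.05 in WT and 9.36, 8.76 and 9.65 in KO. WT replicates 2 and 3 lay below the array medians of 6.41 to 6.49, so its fold over WT rests on dim values. Its difference of 2.91 has a 95% interval of 2.12 to 3.69, at 4.35 to 12.9 times WT, and it missed the threshold too (adjusted p 0.237, limma). The upper bounds of the adipokine intervals reached at most 0.91, for Rarres2, below the lower bounds of Ucp1 (2.12), Cox7a1 (1.11) and Cidea (1.03). The interval of Ppargc1a, the coactivator of mitochondrial biogenesis, ran from 0.29 to 1.43 and shared values with those of Lep, Nampt, Rarres2, Rbp4, Apln and Adipoq.

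**Figure D3:**
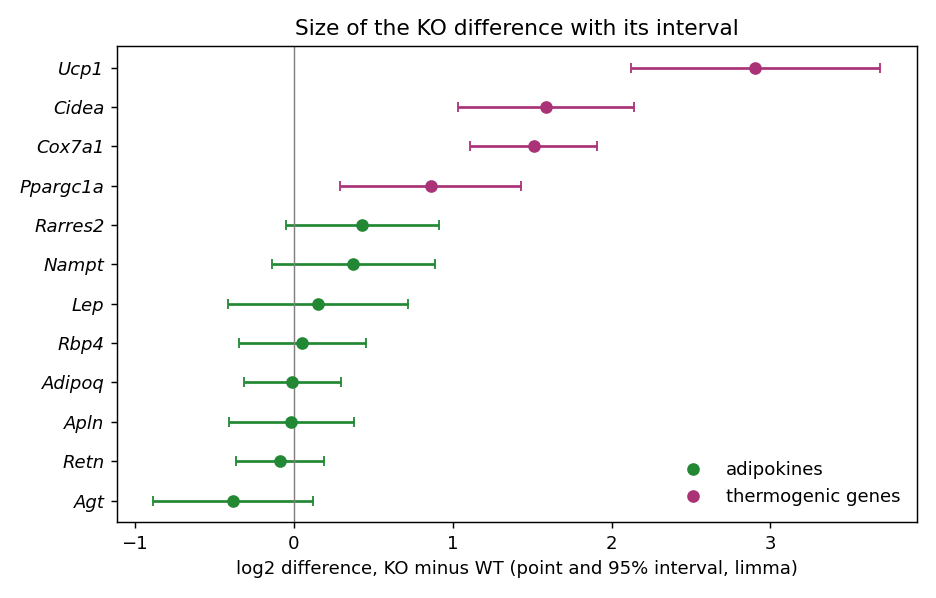
Log2 difference, KO minus WT, with its 95% interval from limma, for the 8 adipokines (green) and 4 thermogenic genes (purple). All 8 green intervals include 0, and those of Ucp1, Cidea and Cox7a1 lie wholly to the right of them. The 4 purple genes all differ by more than the median of the thermogenic list, 0.49.

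The change of Ucp1 was then set against that of each adipokine within the same arrays. Ucp1 minus Adipoq was higher in KO by 2.91 on the log2 scale, Ucp1 minus Lep by 2.75 and Ucp1 minus Rarres2 by 2.47, and the 8 values ran from 2.47 to 3.29. In all 8 comparisons the 3 KO arrays exceeded the 3 WT arrays. Ucp1 alone fixed this outcome. The gap between its KO and WT arrays was wider than the range of any adipokine over the 6 arrays, at most 1.10 (Agt). Ucp1 also had the largest difference above 0 of all 19937 genes. The exact permutation p was 0.1 in each, two-sided, the smallest that 3 arrays against 3 can give, and 0.1 after Benjamini-Hochberg adjustment over the 8. The exact test therefore cannot reach 0.05 here, and the 8 comparisons share the same Ucp1 values. Any gene of so small a range would give the same separation and p, so these do not test the adipokines.

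Of 36 measured genes of thermogenic and beige adipocytes, 20 were higher in KO at an unadjusted p under 0.05, against 4.99% of all genes, and 0 were lower, against 2.48%. In 21 of the 36 the KO arrays all exceeded the WT arrays, against 7.96% of all genes, and none passed adjustment over all genes. The median difference of the list was 0.49, with 30 genes above 0, against 53% of all genes, and 6 below. In 1 gene the KO arrays all lay under the WT arrays, against 5.97% of all genes. Epsti1 and Sp100, interferon-inducible genes in this list, were at -1.04 and -0.50, and at -0.34 and -0.17 without KO replicate 3. Without KO replicate 2 they were at -1.60 and -0.77. Tnfrsf9 and Elovl3, also in this list, were at -0.44 to -0.02 and -0.09 to -0.02 without each array in turn. The count of higher genes was 20 when KO replicate 3 was left out and 19 once the lymphocyte score entered the model, so both were about as large as with all arrays. When KO replicate 2 was left out, 22 were higher and 3 lower. The 8 adipokines and these 36 genes were not compared by a test.

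**Figure D4:**
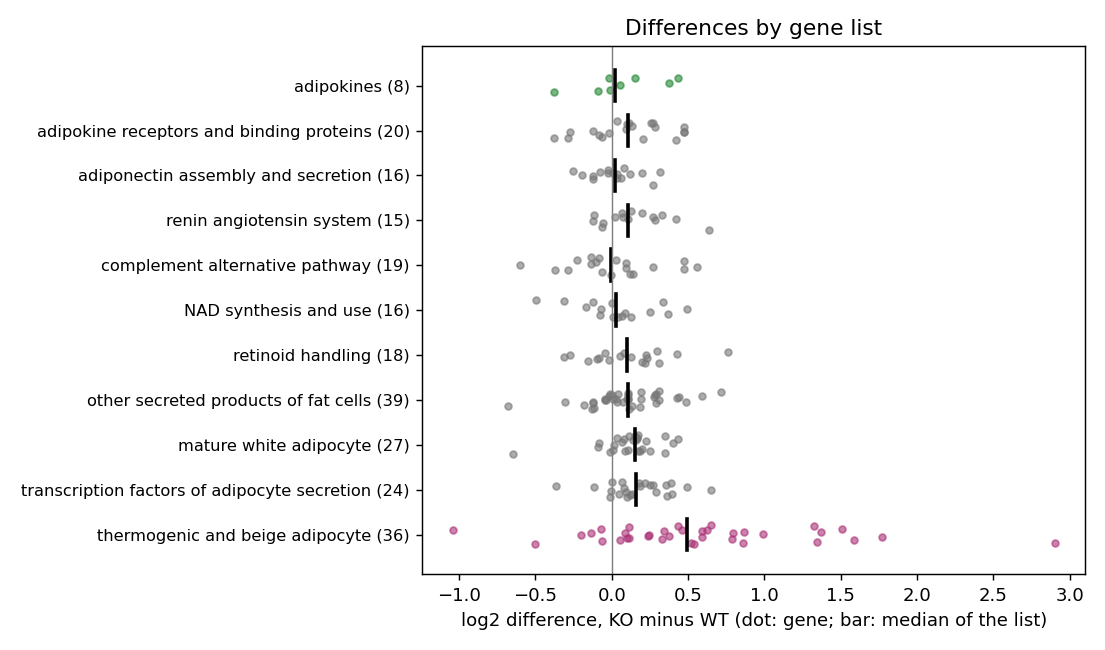
Log2 difference, KO minus WT, of each gene (dots) and the median (bar) for 11 gene lists, with the number of measured genes in brackets. The adipokine median lies at 0.02 and the thermogenic one at 0.49, with the others between 0.00 and 0.16.

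Of other fat cell genes, the list medians lay between those of the adipokines and the thermogenic genes, a difference that was not tested, while single genes ran from -0.68 to 0.72. Of 27 measured genes of the mature white adipocyte, 23 had a difference above 0, against 53% of all genes. The 23 became 16 with the lymphocyte score in the model. The median was 0.15, or 0.07 without KO replicate 3, 0.07 without WT replicate 3 and 0.03 with the lymphocyte score. At an unadjusted p under 0.05, 2 were higher, against 4.99% of all genes, and 1 lower, against 2.48%. The higher ones were 0 without KO replicate 1 or 3, 1 without WT replicate 1, and 5 without KO replicate 2 or WT replicate 2. Trarg1, a regulator of the glucose transporter Glut4, was at 0.43 (SE 0.15), the desaturase Scd1 at 0.23, the amine oxidase Aoc3 at 0.25 and Adig, a small adipocyte protein, at -0.65. Of 39 other secreted products of fat cells, 27 had a difference above 0, against 53% of all genes, and the median was 0.11. The 27 became 19 with the lymphocyte score in the model. At an unadjusted p under 0.05, 7 were higher, against 4.99% of all genes, and 0 lower, against 2.48%. The 7 became 1 without WT replicate 2, 2 without KO replicate 1 and 3 with the muscle score in the model, and the median was 0.03 without KO replicate 3 and -0.0012 with the lymphocyte score. They included the angiogenic factor Vegfa (0.48, SE 0.14), the Wnt inhibitor Sfrp5 (0.43), Metrnl (0.29) and the secretory kinase Fam20c (0.31). Lpl, the lipoprotein lipase that fat cells release to capillaries, was at -0.05 with a 95% interval of -0.29 to 0.20. None of these genes passed adjustment over all genes, where the smallest adjusted p of either list was 0.622.

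Receptors and partners of the adipokines were described next, from lists of their pathways. Of 20 measured receptors and binding proteins, 3 were higher (4.99% of all genes) and 1 lower (2.48% of all genes) at an unadjusted p under 0.05. Their median difference was 0.11, and 0 passed over all genes. The higher ones were 1 without KO replicate 1 or 3 and with the lymphocyte or muscle score in the model. They were 6 without KO replicate 2 and 7 with array weights. Gpr1, a receptor of chemerin, read 5.64, 5.44 and 5.58 in WT and 6.01, 5.91 and 6.01 in KO, so the groups did not overlap (log2 difference 0.42, SE 0.09, adjusted p 0.622 from limma), below the array medians in all arrays. Cmklr1, the signalling receptor of chemerin, differed by 0.13, and the non-signalling receptor Ccrl2 by 0.10. Aplnr, the apelin receptor, was at 8.28, 8.22 and 7.60 in WT and 8.49, 8.45 and 8.57 in KO. Its difference of 0.47 (SE 0.18, adjusted p 0.622) was 0.26 without WT replicate 3. The adiponectin receptors Adipor1 and Adipor2 differed by 0.21 and 0.12, with 95% intervals of 0.00 to 0.42 and -0.21 to 0.44. Lepr, the leptin receptor, was at -0.37 with an SD of 0.76 in KO, and at 0.06 without KO replicate 3. Stra6, a membrane receptor for retinol-binding protein, was at -0.27 (SE 0.10), and its KO arrays all lay under the WT arrays. Cap1 and Tlr4, also in this list, were at -0.29 and 0.26, with 95% intervals of -0.61 to 0.03 and -0.07 to 0.58.

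Of 15 measured genes of the renin angiotensin system other than Agt, 2 passed an unadjusted p under 0.05, both higher in KO as were 4.99% of all genes, and the median was 0.11. Both were membrane peptidases that trim angiotensins. Mme, neprilysin, was at 0.63 (SE 0.19) and Enpep, aminopeptidase A, at 0.42 (SE 0.16), each with the KO arrays above all WT arrays, as in 7.96% of all genes, and an adjusted p of 0.622 from limma. Agt, their upstream precursor, lay at -0.38 as given above. The converting enzyme Ace was at 0.33 with a 95% interval of -0.40 to 1.06, and Agtr1a, the main angiotensin II receptor, at 0.28.

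Among 16 measured genes of NAD synthesis and use, 2 passed an unadjusted p under 0.05, both higher in KO as were 4.99% of all genes, and the median was 0.03. Sirt3, the mitochondrial NAD-dependent deacylase, read 7.58, 7.63 and 7.46 in WT and 8.01, 8.03 and 8.11 in KO, a difference of 0.50 (SE 0.09) with no overlap. Naprt, which makes NAD from nicotinic acid in place of nicotinamide, was at 0.37 (SE 0.10). Nmnat1 and Nmnat3, which act after Nampt, were at 0.34 and 0.04. Nmnat1 was at 0.03 without KO replicate 3 and at 0.61 without KO replicate 2. The adjusted p from limma was at least 0.622 for all 16 genes.

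In retinoid handling, 2 of 18 measured genes were higher (4.99% of all genes) and 1 lower (2.48% of all genes) at an unadjusted p under 0.05, and the median was 0.10. Rarb, a retinoic acid receptor, was at 0.76 (SE 0.17) and Aldh1a3, which makes retinoic acid, at 0.31 (SE 0.11), while Stra6 was the lower gene. In the alternative complement pathway, which adipsin starts, 0 of 19 measured genes reached an unadjusted p under 0.05 and the median was 0.00. Cfb, the substrate of adipsin, differed by 0.14 and properdin, Cfp, by 0.09. Without each array in turn, Cfb was at 0.0034 to 0.28 and Cfp at -0.14 to 0.33. The smallest unadjusted p belonged to the terminal component C8g at 0.27, the C5a receptor C5ar1 at 0.47, the lectin pathway protease Masp1 at -0.29 and the chaperone Clu at -0.60. Clu was at -0.20 without KO replicate 3 and at -0.90 without KO replicate 2. Among 16 genes of adiponectin assembly and secretion, 0 were higher and 1 was lower at that threshold, against 4.99% and 2.48% of all genes, and the median was 0.02. The lower gene was Syvn1, a ubiquitin ligase of the endoplasmic reticulum, at -0.26, whereas Erp44 and Ero1a, which retain and release adiponectin, were at 0.12 and 0.03.

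Transcription factors that act on adipokine genes had a difference above 0 in 20 of 24 genes, against 53% of all genes. At an unadjusted p under 0.05, 3 were higher and 1 lower, against 4.99% and 2.48% of all genes, and their median was 0.16. Ebf2 was at 0.65 (SE 0.15), Klf4 at 0.39 and Atf3 at 0.29, while Foxo1, an insulin-regulated factor, was at -0.36 (SE 0.09). Pparg and Cebpa, which drive Adipoq in fat cells, were at 0.40 and 0.27, with 95% intervals of -0.08 to 0.88 and -0.18 to 0.72. None passed over all genes.

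Promoter sequences were searched because Atf7 belongs to the ATF/CREB family, which binds the cAMP response element TGACGTCA or its shorter core TGACG. Windows of 300 bases, from 250 before to 50 after the start site, were taken from RefSeq (GRCm38.p6) for 8 of the 9 listed genes. These 8 include Cfd but not Rarres2, which had no window and was not searched. They gave 9 windows, as Rbp4 has a pair of start sites. The full element was found on either strand in 0 of 8 genes, and in 1.79% of all promoter windows. The core, which the full one contains, was found in 2 of 8, Nampt and Rbp4, and in 20.8% of all windows. TTGCGCAA, a C/EBP motif, was found in Lep and in 0.183% of all windows. CCAAT was found in Adipoq and Rbp4 and in 37.4% of all windows. The TATA box, TATAAA, was found in Agt and Rbp4 and in 13.6% of all windows. The E-box, CACGTG, was found in 0 of 8 genes and in 7.15% of all windows. The stretches below show, with the match in capitals and bases counted back from the start site, the cores in Nampt (chr12:32820175-32820234, plus strand, bases -160 to -101) and Rbp4 (chr19:38124949-38125008, minus strand, bases -197 to -138), the C/EBP match in Lep (chr6:29060146-29060205, plus strand, bases -75 to -16) and the 3 CCAAT matches in Adipoq (chr16:23146476-23146535, plus strand, bases -60 to -1), of which those read as ATTGG lie on the other strand.
Nampt: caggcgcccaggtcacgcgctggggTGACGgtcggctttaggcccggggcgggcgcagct
Rbp4: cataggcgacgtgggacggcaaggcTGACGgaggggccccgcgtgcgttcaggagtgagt
Lep: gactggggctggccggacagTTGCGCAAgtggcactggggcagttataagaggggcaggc
Adipoq: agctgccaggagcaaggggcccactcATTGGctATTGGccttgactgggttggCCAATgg
A match is a string of letters and not a measured binding site. The genes with the core, Nampt and Rbp4, differed between KO and WT by 0.38 and 0.06, and neither passed the threshold.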

How the data were processed

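The authors deposited normalized log2 values of 6 arrays. The tools RMA, affy and limma are listed per the submitters' processing notes. RMA makes the arrays' distributions alike, so a change common to most transcripts is removed. Their versions, options and genome build: not given in the sources used here. Symbols came from the platform's annotation table: 21640 had 1 symbol, 1321 several and 11799 none, and 19855 of 19937 genes matched RefSeq. Where a gene had several probe sets, the brightest over 6 arrays stood for it. The test was limma's (version 3.58.1, R 4.3.3; lmFit, then eBayes; two-sided, no filter), with Benjamini-Hochberg adjustment over 19937 genes, and the test was checked on simulated data. SE and 95% intervals are limma's moderated ones. Precision is limited by having 3 arrays a group. Named genes were the adipokines, 4 thermogenic genes and, from each pathway list, the 4 or fewer of smallest p. Receptors or enzymes next to an adipokine and the 3 genes most like Adipoq and Lep in pattern were also named. Lpl, Epsti1, Sp100, Tnfrsf9, Elovl3 and further partners were chosen after their values were seen. The members and lists were chosen with earlier results of these data known. Lists carry counts and medians, with no test. Alternatives were other normalizations, a filter on dim genes, the mean of probe sets, all probe sets, each array left out, the replicate number as a block, lymphocyte or muscle scores as covariates, and array weights.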

Additional observations from a re-analysis of the deposited data

How the results depend on the processing

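No adipokine passed adjustment in limma under any of the 15 alternatives to the fit, with 0.220 as the smallest adjusted p (Rarres2 without KO replicate 2). Of the 15, 4 left every adipokine difference equal by construction, the fits over all probe sets, over mean probe sets, without dim genes and with the replicate block. Of the other 88 values, 17 had the other sign, none of them for Retn, Agt, Nampt or Rarres2. Adipoq was at 0.0096 with array weights, 0.018 with a common array median, 0.013 with the muscle score, 0.0080 when quantile-normalized again, -0.18 with the lymphocyte score, and -0.12 to 0.10 without each array in turn. Apln was at 0.013, 0.034 and 0.0088 under the median shift, muscle score and renewed quantile normalization, and -0.11 to 0.17 without each array. Rbp4 was at -0.0051 with array weights, -0.23 with the lymphocyte score, and -0.14 to 0.19 without each array; Lep was at -0.061 to 0.35 without each array. The count of adipokines at an unadjusted p under 0.05 was 1 with array weights (Rarres2) and 1 with the lymphocyte score (Rbp4), and 0 to 1 without each array. Deviations of same-numbered arrays from their group means, over all genes, correlated at -0.14, -0.08 and -0.04. With 3 arrays a group these values cannot settle whether replicate numbers paired mice. With the replicate block that count was 1 (Rarres2, unadjusted p 0.00595, adjusted p 0.644), and 0 genes of all passed. At an adjusted p under 0.05, 2 probe sets were called in the fit over all probe sets, Atf7 probe set 10433032 among them. With the mean of all probe sets 1 gene was called. The thermogenic median was 0.63 without dim genes, 0.37 with the lymphocyte score and 0.41 to 0.61 without each array. The count of 20 higher thermogenic genes, recomputed under alternatives chosen after seeing the data, was 17 to 22. The 17 came from the fit without dim genes, where 27 of the 36 genes were measured. The cause of these changes was not tested. Ucp1 minus each adipokine stayed between 2.12 and 3.69. Fits of further single probe sets were not run, since each adipokine had 1.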
